A study of Homo sapiens with 4 samples.

Results

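Long noncoding RNAs of Huh7 cells that are named as intergenic transcripts or as hosts of small RNAs were compared between cells with a hairpin RNA against NUP210 and control cells. They were selected by gene symbol and by level: a symbol starting with LINC and a number, an SNHG symbol, a MIR host symbol, or 1 of the 6 RNAs MALAT1, NEAT1, GAS5, HULC, TUG1 and DANCR, with a mean of 1 TPM or more over all 4 libraries. TPM, the unit of the deposited values, is a level per transcript length and per library total, so it can be set side by side between genes. Of 20226 listed genes, 186 matched the symbols and 88 also met the level, 64 of 157 LINC genes, 13 of 13 SNHG genes, 5 of 10 MIR host genes and all 6 of the individually named RNAs. The mean level chose these 88, so that they are detected is not a result. At the edge of the threshold, LINC01140, LINC01123 and LINC00337 lay just inside it with means of 1.02, 1.02 and 1.08 TPM, and LINC00470, LINC01057 and LINC01152 just outside it with 0.975, 0.948 and 0.90 TPM.

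Long noncoding RNAs act as RNA and not through a protein, in several known ways. Some hold nuclear bodies together, as NEAT1 does for paraspeckles, and MALAT1 collects in nuclear speckles, where splicing factors are stored. Others are host genes: snoRNAs, which guide the chemical modification of ribosomal RNA, and microRNAs, which repress messenger RNAs, are cut out of the introns or exons of a longer transcript whose spliced remainder is what is measured here. Many LINC genes have no known function, some lie beside a transcription factor gene, and some were later found to encode a microprotein.

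Huh7 is an established human line derived from a hepatocyte carcinoma. In 2 libraries (shNUP210) the cells carried a short hairpin RNA against NUP210, which encodes a glycoprotein of the nuclear pore membrane. The other 2 libraries (shCon) are titled as a control hairpin, with wild type as their genotype in the labels, and all 4 are labelled as untreated. The labels do not say whether the libraries of a group are separate cultures, or whether a hairpin line is 1 clone or a pool, so the p-values here measure the spread between libraries, which may be technical. In bulk RNA, fewer cells with a transcript and less of it per cell cannot be told apart. The sources used here do not give whether RNA was selected by its poly(A) tail or whether strands were kept.

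NUP210 itself had 10.1 and 9.85 TPM in the 2 shNUP210 libraries, against 32.8 and 27.3 TPM in the shCon libraries. Both shNUP210 values lay below both shCon values, by 1.49 on the log2(TPM + 1) scale (SE 0.23, limma adjusted p = 0.0719 by Benjamini-Hochberg over 14663 genes), which does not pass the threshold of 0.05 used throughout. The libraries listed 14564 and 14405 genes at 1 TPM or more in shNUP210, against 13920 and 13675 in shCon. All 6 hepatocyte markers were listed, and they summed to 12611 and 12824 TPM in shNUP210 libraries, against 16443 and 15991 TPM in shCon libraries. Of 4 fibroblast markers 3 were listed, with sums of 23.6 and 11.8 TPM in shNUP210 and 3.28 and 6.62 TPM in shCon. Of 3 leukocyte markers 1 was listed (7.41 and 3.82 TPM in shNUP210, 4.58 and 9.56 TPM in shCon), and of 3 endothelial markers 0 were listed. The hepatocyte markers did not share a direction. APOA1 (2064 and 2054 TPM in shNUP210, 5034 and 5164 TPM in shCon) and SERPINA1 (1617 and 1602 TPM in shNUP210, 2716 and 2635 TPM in shCon) had lower values in both shNUP210 libraries, AFP and TTR had higher values in both, and ALB and APOB overlapped. The hepatocyte and fibroblast sums did not overlap between the groups, and their part in the results below was not tested.

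None of the 88 RNAs passed the test between the groups, while LINC00261, NEAT1, LINC00969 and SNHG12 had the lowest p-values and higher values in both shNUP210 libraries than in both shCon libraries. By limma on log2(TPM + 1), fitted over 14663 genes with a mean of 1 TPM or more, 49 genes (0.334%) were higher and 47 (0.321%) lower in shNUP210 at an adjusted p under 0.05, and 0 of the 88 were among them. After trimmed-mean scaling of the libraries the same test called 34 genes higher and 91 lower, and again 0 of the 88. At an unadjusted p under 0.05, 5 of the 88 were higher and 3 lower, against 2116 genes (14.4%) higher and 698 (4.76%) lower among all genes tested. Both are smaller shares than those among all genes, which lie at higher levels by the median (10.35 TPM, against 3.56 TPM for the 88). Those 8 were LINC00261, NEAT1, LINC00969, SNHG12 and LINC00304, higher, and LINC00909, LINC01146 and LINC00152, lower.

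A call needs a level as well as a difference, and 2 other filters on low values changed the call of 1 RNA. With genes kept at 5 TPM or more in 2 libraries, 290 of 10140 genes (2.86%) were called in either direction, and of the 38 RNAs that this filter kept 1 was called, LINC00261 (limma adjusted p = 0.0403). With genes kept at 1 TPM or more in all 4 libraries, 320 of 11746 genes (2.72%) were called, and of the 53 RNAs kept LINC00261 was again the 1 called (adjusted p = 0.0414). Neither share is above that of all genes under the same filter. With 1 library left out, the log2 fold change of LINC00261 stayed between 1.37 and 1.43. Such a fit leaves a group with 1 library, so calls among the 88 are not read from it.

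As a sum, the 88 RNAs took 2252 and 2334 TPM in the shNUP210 libraries, against 2199 and 2586 TPM in the shCon libraries. These are 0.225% and 0.233% of each shNUP210 library and 0.22% and 0.259% of each shCon library, and the groups overlap. DANCR and SNHG6 alone held 43.3% and 45.1% of that sum in shNUP210, against 49.7% and 52.2% in shCon. The other 86 RNAs share the remainder, and 52 of the 88 have a mean under 5 TPM.

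The median fold change of the 88 RNAs was close to that of all genes. The median log2 fold change of all genes tested was 0.24 in TPM as deposited (0.07 after trimmed-mean scaling), so class medians are given relative to it. The median over the 88 RNAs was 0.22, which is 0.03 below that of all genes, and 42 of the 88 lay above it. Values did not overlap between the groups in 35 of the 88, 24 of them higher and 11 lower in shNUP210, or 27.3% and 12.5%. Among all genes tested those shares were 38.8% higher and 13.0% lower. The smaller share higher is not matched for level, as the 88 had a median level of 3.56 TPM and all genes 10.35 TPM. At 20 TPM and over, 11 of the 18 RNAs did not overlap in either direction, against 61.1% of all genes at that level.

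The classes differed in where their medians fell, and none of these differences was tested. They follow the deposited symbols, and 22 of the 88 RNAs have another current symbol. LINC00338, now SNHG20, and LINC00478, now MIR99AHG, count as LINC, and MIRLET7DHG, now LINC02603, counts as MIR host. The 6 individually named RNAs had a median log2 fold change of 0.38, or 0.14 above all genes, with 3 higher, 1 lower and 2 overlapping between the groups. The 13 SNHG genes had a median of -0.07, or 0.31 below all genes, with 4 higher, 2 lower and 7 overlapping. The 5 MIR host genes had a median of 0.10, or 0.15 below all genes, and all 5 overlapped. The 64 LINC genes had a median of 0.33, or 0.08 above all genes, with 17 higher, 8 lower and 39 overlapping. Higher and lower shares were 30.8% and 15.4% for SNHG and 26.6% and 12.5% for LINC, against 38.8% and 13.0% among all genes. The classes are not matched for level. Median levels were 31.34 TPM for the individually named RNAs, 25.08 for SNHG, 4.71 for MIR host and 2.45 for LINC genes, against 10.35 TPM for all genes. Without any 1 library the SNHG median stayed between 0.48 and 0.15 below that of all genes, and the LINC median lay between 0.15 below and 0.22 above it. The MIR host median lay between 0.18 below and 0.035 above it, and was 0.0098 above it with a pseudocount of 0.1 and 0.056 above it among genes with a mean of 5 TPM or more.

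**Figure D1:**
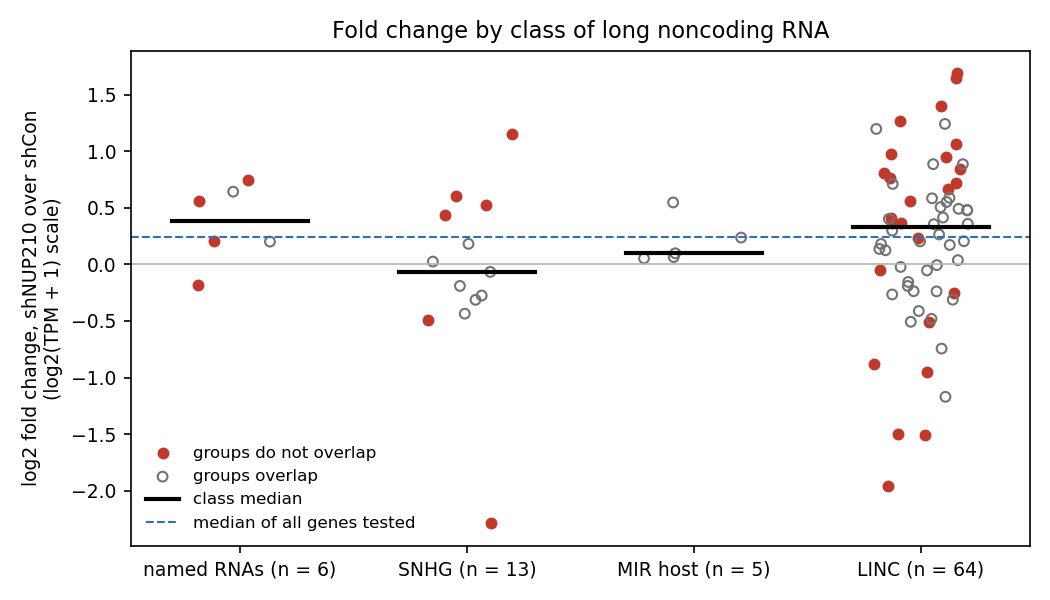
Log2 fold change of each of the 88 long noncoding RNAs (points, shNUP210 over shCon, on log2(TPM + 1)) by class, with the class median as a black bar and the median of all genes tested as a dashed line. Filled points are RNAs whose groups do not overlap (35 of 88), open points those whose groups overlap, and the SNHG bar at -0.07 lies below the dashed line at 0.24.

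NEAT1 and MALAT1, the nuclear body RNAs, had higher values in both shNUP210 libraries than in both shCon libraries, as did 38.8% of all genes. NEAT1 (ENSG00000245532, GRCh38 chromosome 11, 65422774 to 65445540, plus strand, lincRNA), the RNA on which paraspeckles assemble, was at 29 and 28.2 TPM in shNUP210, against 18.6 and 14.8 TPM in shCon. The shNUP210 values lay close together and above both shCon values, with a log2 fold change of 0.75 (SE 0.22, limma adjusted p = 0.177). MALAT1 (ENSG00000251562, chromosome 11, 65497688 to 65506516, plus strand, lincRNA) was at 9.98 and 12.3 TPM in shNUP210, against 6.45 and 8.04 TPM in shCon. Its groups did not overlap either, with a log2 fold change of 0.56 (SE 0.29, adjusted p = 0.363). The 2 RNAs are neighbours on chromosome 11, and both have forms without a poly(A) tail, so their levels depend on how the RNA was selected.

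TUG1, HULC, GAS5 and DANCR did not pass the test, and 2 of these 4 overlapped between the groups. TUG1 (chromosome 22, 30969245 to 30979395, plus strand), a transcript first described in mouse retina, was at 5.88 and 10.7 TPM in shNUP210, against 6.27 and 3.55 TPM in shCon. HULC (ENSG00000251164, chromosome 6, 8652269 to 8653856 in RefSeq), named for its high level in liver cancer, was at 48.3 and 37.7 TPM in shNUP210, against 34.3 and 39.9 TPM in shCon. Both overlapped. GAS5 (chromosome 1, 173863900 to 173868882, minus strand), whose introns hold 11 snoRNAs in RefSeq, was at 119.6 and 125 TPM in shNUP210, against 111 and 101 TPM in shCon, and did not overlap. Its log2 fold change of 0.20 (SE 0.12, limma adjusted p = 0.426) is below the 0.24 of the median gene, and after median-ratio or trimmed-mean scaling it was 0.0052 or 0.0024.

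DANCR was the most abundant of the 88. DANCR (ENSG00000226950, chromosome 4, 52712404 to 52720351, plus strand), known from work on progenitor cells as an RNA that holds back differentiation and the host of the snoRNA SNORA26, was at 720.2 and 722 TPM in shNUP210, against 785 and 849.5 TPM in shCon. Both shNUP210 libraries lay below both shCon libraries. The log2 fold change was -0.18 (SE 0.08, limma adjusted p = 0.284). After median-ratio or trimmed-mean scaling it was -0.38 (limma adjusted p = 0.133 and 0.131), and after quantile normalization -0.20 (adjusted p = 0.27). The median of all genes moved down as well, from 0.24 as deposited to 0.07, 0.07 and 0.0036 under these scalings, in this order. Of its 50-base stretches, 14.0% also occur in the gene RP11-177B4.1, and how the authors' counting shared such reads is not known.

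**Figure D2:**
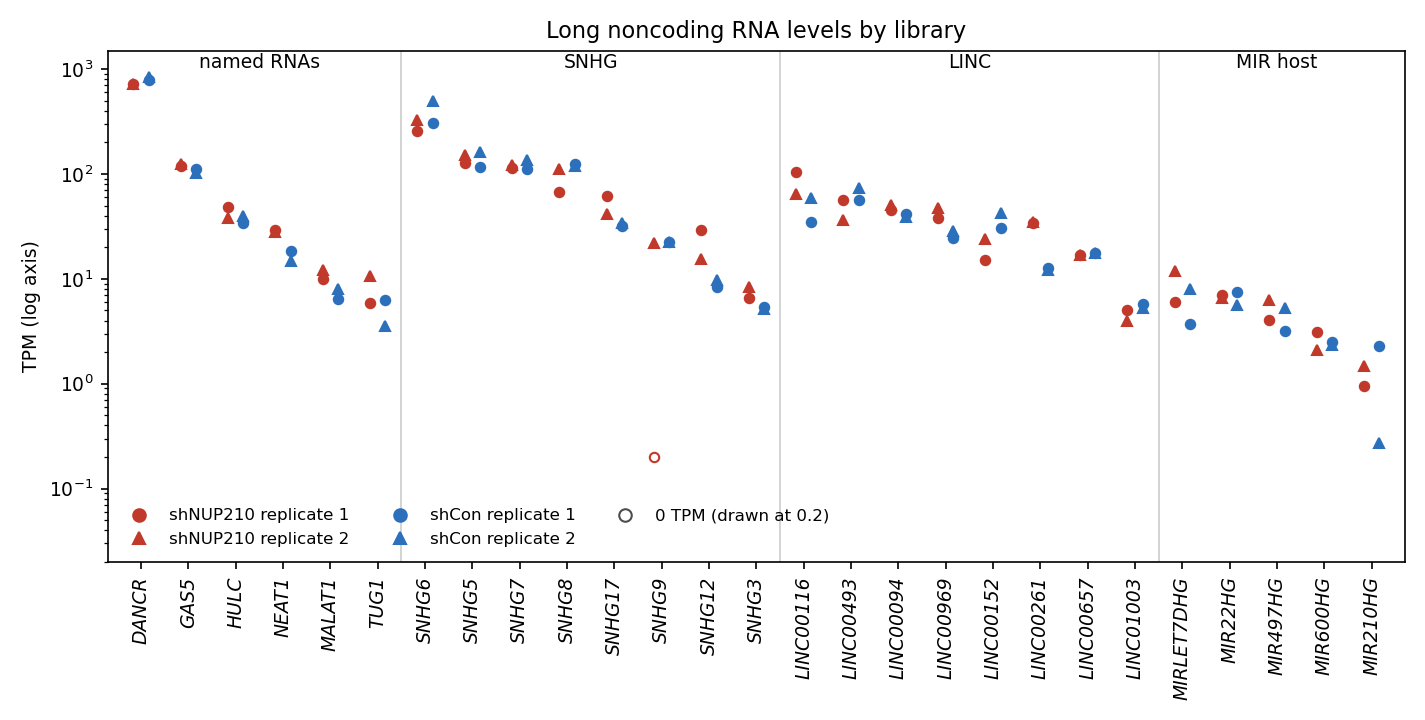
Level in TPM (log axis) of 27 long noncoding RNAs in each library, with shNUP210 libraries in red, left of the shCon libraries in blue, grouped by class and ordered by mean level. Circles are replicate 1 and triangles replicate 2, and an open symbol drawn at 0.2 is a value listed at 0 (SNHG9 in 1 shNUP210 library). LINC00261 shows tight pairs that do not meet. The pairs of NEAT1 do not meet either, and only its shNUP210 pair is tight, while the MIR host genes are interleaved.

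The snoRNA hosts of the SNHG class held both higher and lower values in shNUP210. Their sum was 759 and 899 TPM in shNUP210, against 817 and 1101 TPM in shCon, and it overlapped between the groups. Of the 13 genes, 12 contain snoRNAs in RefSeq, 33 in all, and SNHG10 does not. Spliced remainders of several such hosts are known targets of nonsense-mediated decay. Some hosts, GAS5 among them, are also known to start with a pyrimidine tract like that of ribosomal protein messenger RNAs. A run of 5 or more C or T counted from the first transcribed base on was found in 2 of the 10 SNHG genes with a RefSeq start (20%), in 3 of 46 LINC genes, in 0 of 5 MIR host genes and in 0 of 4 individually named RNAs. Over all 27305 genes with such a window the share was 6.5% (1774 genes), counting a gene with several starts as 1. GAS5 is 1 of these 4 individually named RNAs, with a run of 0 bases from its listed start. A match describes the letters at the listed start only, and no match says nothing about other starts of the gene.

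The starts of 4 SNHG genes are shown, SNHG5 and SNHG12 because they hold such a run, and SNHG8 and SNHG17 because their groups did not overlap. Each line gives 40 bases of the GRCh38.p14 sequence from RefSeq, 5′ to 3′ on the gene's strand, 20 before the listed start and 20 from it on, with the transcribed C and T bases at the start in capitals.
SNHG5, chr6:85678714-85678753, minus strand: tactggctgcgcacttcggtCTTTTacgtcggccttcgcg
SNHG12, chr1:28581854-28581893, minus strand: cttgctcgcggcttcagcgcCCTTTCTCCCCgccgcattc
SNHG8, chr4:118278742-118278781, plus strand: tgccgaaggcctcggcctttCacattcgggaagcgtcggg
SNHG17, chr20:38435309-38435348, minus strand: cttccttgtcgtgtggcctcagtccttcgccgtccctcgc
The transcribed run is 5 bases long in SNHG5, 11 in SNHG12, 1 in SNHG8 and 0 in SNHG17. The listed start of SNHG12 lies 1110 bases inside the RefSeq span of that gene, so it is an internal start.

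Values of SNHG12 were higher, and values of SNHG8 lower, in both shNUP210 libraries. SNHG12 (ENSG00000197989, chromosome 1, 28578538 to 28583132, minus strand), host of 4 snoRNAs, was at 29.1 and 15.6 TPM in shNUP210, against 8.37 and 9.77 TPM in shCon. Both shNUP210 libraries were above both shCon libraries but nearly 2-fold apart from each other, and the log2 fold change was 1.15 (SE 0.35, limma adjusted p = 0.190), or 0.73 to 1.58 with 1 library left out. SNHG8 (chromosome 4, 118278709 to 118279823, plus strand), host of SNORA24, was at 67.6 and 111 TPM in shNUP210, against 124 and 120.5 TPM in shCon. It lay lower without overlap, with a log2 fold change of -0.49 (SE 0.25, adjusted p = 0.35), or -0.85 to -0.14 with 1 library left out. SNHG1, host of 9 snoRNAs, was at 36.7 and 50.5 TPM in shNUP210 and at 27.7 and 51.6 TPM in shCon. It falls outside the rule for named genes. SNHG5 was at 128 and 151 TPM in shNUP210 and at 116 and 161 TPM in shCon, and SNHG7 at 115 and 122 TPM in shNUP210 and at 113 and 137 TPM in shCon. In each of these 3 genes the shNUP210 values lay inside the range of the shCon values. Of the 50-base stretches of SNHG7, 20.9% also occur in FAM69B, which had a mean of 85.7 TPM.

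Among the other snoRNA hosts, SNHG17 (ENSG00000196756, chromosome 20, 38420588 to 38435353, minus strand), host of the SNORA71 family, was at 62.3 and 41.7 TPM in shNUP210, against 32.2 and 34.4 TPM in shCon. Its groups did not overlap, with a log2 fold change of 0.60 (SE 0.24, limma adjusted p = 0.263), or 0.32 to 0.89 with 1 library left out. SNHG3 (chromosome 1, 28505980 to 28510892, plus strand), host of both SNORA73 copies, was at 6.57 and 8.42 TPM in shNUP210, against 5.39 and 5.13 TPM in shCon, a log2 fold change of 0.43 (SE 0.32, adjusted p = 0.50). Its start lies 37 bases from that of the protein-coding gene RCC1, and 242 exon bases of the 2 genes overlap. RCC1 was at 69.9 and 82.0 TPM in shNUP210 and at 80.2 and 74.3 TPM in shCon, and overlapped between the groups.

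SNHG6, the second most abundant of the 88 and host of SNORD87, was at 256 and 329 TPM in shNUP210, against 308 and 499.97 TPM in shCon. Its groups overlapped, since shCon replicate 1 lay between the shNUP210 libraries. SNHG9, host of SNORA78, was listed at 0 and at 22.2 TPM in shNUP210, against 22.7 and 22.3 TPM in shCon. Its log2 fold change of -2.29 (SE 1.43, limma adjusted p = 0.438) rests on the single listed 0, and the other 3 libraries lie within 1 TPM of each other. SNHG9 starts 99 bases from RPS2, a ribosomal protein gene at 4146 and 4421 TPM in shNUP210 and at 5623 and 6043 TPM in shCon.

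The 5 genes with a MIR host symbol gave no difference beyond the spread of the libraries. LINC00478, now MIR99AHG, is counted with the LINC genes, and MIR4435-1HG was not matched by the symbol rule. Both had higher values in both shNUP210 libraries without passing the test, and their values are given below. MIR22HG (chromosome 17, 1711493 to 1717174, minus strand), the host of miR-22, was at 6.95 and 6.63 TPM in shNUP210, against 7.46 and 5.66 TPM in shCon. MIR497HG (chromosome 17, 7015818 to 7019659, minus strand), the host of miR-195 and miR-497, was at 4.07 and 6.26 TPM in shNUP210, against 3.20 and 5.31 TPM in shCon. MIR600HG (chromosome 9, 123109494 to 123115477, minus strand), which lies within STRBP, was at 3.14 and 2.08 TPM in shNUP210, against 2.48 and 2.35 TPM in shCon. All 3 overlapped between the groups. Of the 50-base stretches of MIR497HG, 35.2% also occur in C17orf49, which had a mean of 107 TPM.

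MIR210HG (chromosome 11, 565660 to 568457, minus strand) hosts miR-210, a microRNA induced by low oxygen, and was at 0.95 and 1.47 TPM in shNUP210, against 2.31 and 0.27 TPM in shCon. The shCon libraries bracket the shNUP210 libraries, and the ratio of the means (0.938) and the mean of the logs (0.10) point in opposite directions. MIRLET7DHG (chromosome 9, 94176602 to 94204568, minus strand) was at 5.96 and 11.8 TPM in shNUP210, against 3.67 and 7.92 TPM in shCon, where shNUP210 replicate 1 lay between the shCon libraries. In GENCODE release 29 this gene runs opposite to let-7d, which lies inside its span, with let-7f-1 and let-7a-1 172 and 569 bases beyond its end, so no microRNA on its own strand lies within it. Of its 50-base stretches 82.1% also occur in RP11-2B6.2. The limma adjusted p of the 5 MIR host genes was 0.569 or more.

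One arm of each microRNA inside the other 4 MIR host genes is shown, because these microRNAs are what the host transcripts are named for, and the other arms are left out. The sequences are from RefSeq (GRCh38.p14), 5′ to 3′, with the seed, bases 2 to 8, in capitals.
hsa-miR-22-3p, in MIR22HG: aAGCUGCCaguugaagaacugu
hsa-miR-195-5p, in MIR497HG: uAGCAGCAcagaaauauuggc
hsa-miR-497-5p, in MIR497HG: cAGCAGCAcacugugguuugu
hsa-miR-600, in MIR600HG: aCUUACAGacaagagccuugcuc
hsa-miR-210-3p, in MIR210HG: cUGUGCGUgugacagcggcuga
The 5p arms of miR-195 and miR-497 share the seed AGCAGCA, and the other 3 seeds shown differ from it and from each other. The tables list 23 microRNA genes, 9 of them at a mean of 1 TPM or more, and 4 snoRNA genes, 3 at that level, and mature small RNAs were not measured, so the host levels say nothing of them.

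Among LINC genes, LINC00261 had the lowest p-value of all 88 RNAs. LINC00261 (ENSG00000259974, chromosome 20, 22547671 to 22578642, minus strand, lincRNA) lies beside the endoderm factor gene FOXA2 and is known to favour FOXA2 expression when human endoderm forms. It was at 34.1 and 34.6 TPM in shNUP210, against 12.7 and 12.2 TPM in shCon. Each pair of libraries differed by under 1 TPM, and the groups lay 2.77-fold apart by their means. The log2 fold change was 1.40 (SE 0.20, limma adjusted p = 0.0666), which ranked 165 by p among 14663 genes. FOXA2, whose start is 6813 bases away, was at 72.1 and 76.1 TPM in shNUP210, against 58.2 and 56.1 TPM in shCon. The groups did not overlap, with a log2 fold change of 0.37 (SE 0.14, adjusted p = 0.245).

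The 300 bases around the start of LINC00261 are shown because it is the RNA with the lowest p-value and its neighbour encodes a forkhead factor. They run from 250 bases before to 50 bases into the transcript (RefSeq, GRCh38.p14), and capitals mark the 1 match to the forkhead core TGTTTAC, read on both strands, here as GTAAACA.
LINC00261, chr20:22578593-22578892, minus strand: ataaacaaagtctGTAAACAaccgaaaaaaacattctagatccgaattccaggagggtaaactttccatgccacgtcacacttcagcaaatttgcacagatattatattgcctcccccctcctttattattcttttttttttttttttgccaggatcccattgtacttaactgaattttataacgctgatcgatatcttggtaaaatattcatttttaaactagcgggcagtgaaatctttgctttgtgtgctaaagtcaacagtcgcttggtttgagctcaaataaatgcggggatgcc
The match begins 237 bases before the start. The motif was present in 3 of the 65 RNAs with a RefSeq window, LINC00261, LINC00511 and LINC00478, and in 1145 of 27305 genes (4.19%). It is a match of letters, and binding was not measured. Of the 50-base stretches of LINC00261, 85.3% also occur in AL121722.1, a gene of GENCODE release 29 that the deposited tables do not list.

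The other abundant LINC genes include several with a microprotein. LINC00116 (ENSG00000175701, chromosome 2, 110211529 to 110245420, minus strand), now MTLN, encodes the mitochondrial microprotein mitoregulin and was at 104.8 and 64.1 TPM in shNUP210, against 34.5 and 59.3 TPM in shCon. The groups did not overlap, by a margin of under 5 TPM, and the log2 fold change was 0.84 (SE 0.35, limma adjusted p = 0.277), or 0.46 to 1.22 with 1 library left out. LINC00493, now SMIM26 and also the gene of a mitochondrial microprotein, was at 56.95 and 36.3 TPM in shNUP210, against 56.96 and 74.2 TPM in shCon. The nearest libraries of the groups differed only in the last digit, and the log2 fold change was -0.51 (SE 0.27, adjusted p = 0.370), or -0.82 to -0.19 with 1 library left out. Of the 88 RNAs, 6 are annotated as protein-coding in GENCODE release 29, also including LINC00094 (BRD3OS), LINC00998 (SMIM30), LINC01125 (C2orf92) and LINC00984 (INAFM2). LINC00094 was at 45.1 and 50.2 TPM in shNUP210, against 41.4 and 39.3 TPM in shCon, a log2 fold change of 0.23 (SE 0.16, adjusted p = 0.484).

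LINC00969 (ENSG00000242086, chromosome 3, 195658062 to 195739964, plus strand), now MUC20-OT1, whose span holds miR-570, was at 38.3 and 46.9 TPM in shNUP210, against 24.3 and 28.6 TPM in shCon. Both shNUP210 libraries were above both shCon libraries, with a log2 fold change of 0.67 (SE 0.20, limma adjusted p = 0.188). It overlaps 2001 exon bases of the pseudogene SDHAP2, and 29.1% of its 50-base stretches occur elsewhere, so its level is uncertain. LINC00657 (ENSG00000260032, chromosome 20, 36045622 to 36050960, minus strand), now NORAD, which binds Pumilio proteins, was at 17.0 and 16.9 TPM in shNUP210, against 17.6 and 17.7 TPM in shCon. The groups did not overlap, but the log2 fold change was only -0.05 (SE 0.21, adjusted p = 0.916). LINC01003 was at 5.04 and 3.92 TPM in shNUP210, against 5.79 and 5.25 TPM in shCon, a log2 fold change of -0.26 (SE 0.34, adjusted p = 0.709).

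LINC00152 and MIR4435-1HG, which shares part of its sequence, differed in opposite directions, and neither passed the test. LINC00152 (ENSG00000222041, chromosome 2, 87454781 to 87636740, plus strand), now CYTOR, named as a cytoskeleton regulator RNA, was at 15.0 and 24.2 TPM in shNUP210, against 30.6 and 42.2 TPM in shCon. Both shNUP210 libraries lay below both shCon libraries, with a log2 fold change of -0.88 (SE 0.31, limma adjusted p = 0.223), or -1.20 to -0.55 with 1 library left out. Of its 50-base stretches 32.8% also occur in MIR4435-1HG, which was at 41.3 and 37.3 TPM in shNUP210, against 20.6 and 33.5 TPM in shCon. Summed, the 2 genes were at 56.3 and 61.5 TPM in shNUP210, against 51.2 and 75.7 TPM in shCon. The sum overlaps between the groups, and whether reads were shared differently between the 2 genes was not tested.

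A difference of 2-fold or more without overlap was found in 10 of the 88 RNAs, 6 higher and 4 lower, against 1280 genes (8.73%) higher and 421 (2.87%) lower among all genes tested. The 6 are LINC00261, SNHG12, LINC00304, LINC00665, LINC00478 and LINC00484, and the 4 are SNHG9, LINC00909, LINC01146 and LINC01140. The 6 are a smaller share, and the 4 a larger share, than among all genes. Of the 6, LINC00478 and LINC00484 met the level through shNUP210 alone. Of the 4, LINC00909, LINC01146 and LINC01140 met it through shCon alone, and SNHG9 rests on a single listed 0. Among the RNAs with a mean of 1 TPM or more in both groups 5 of the 10 are left, and with a mean of 5 TPM or more 3 are left, LINC00261, SNHG12 and SNHG9. LINC00304, LINC00665, LINC00909 and the 4 RNAs described next fall outside the rule for named genes and are given after their values were seen. LINC00304 was at 3.88 and 4.43 TPM in shNUP210, against 0.98 and 1.32 TPM in shCon, and LINC00665 at 5.75 and 3.51 TPM in shNUP210, against 1.71 and 1.57 TPM in shCon. LINC00304 overlaps 1175 exon bases of ACSF3, and 27.2% of its 50-base stretches occur there, so its level is uncertain. LINC00909, now ZNF407-AS1, was at 1.08 and 0.55 TPM in shNUP210, against 3.50 and 4.71 TPM in shCon.

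Of the 88 RNAs, 4 were listed at 0 in both libraries of a group, and no fold is given for these. LINC01146 (now HISLA) was listed at 0 in both shNUP210 libraries, against 1.60 and 4.79 TPM in shCon, and LINC01140 was listed at 0 in both shNUP210 libraries, against 3.12 and 0.95 TPM in shCon. LINC00478, now MIR99AHG and the host of let-7c, miR-99a and miR-125b-2, was at 6.18 and 0.37 TPM in shNUP210, while both shCon libraries listed it at 0. LINC00484 was at 4.12 and 1.03 TPM in shNUP210 and likewise listed at 0 in shCon. Of the 88, 20 had a mean under 1 TPM in 1 of the groups, 7 of them in shNUP210 and 13 in shCon, so these met the level through the other group.

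In each range of level the shNUP210 libraries differed about as much as the groups did, or more. The group value is a difference of means of 2 libraries, and the others are differences of single libraries, so the measures are unlike. Among the 29 RNAs with a mean of 1 to 2 TPM the median absolute log2 fold change was 0.72, beside median differences of 0.79 between the shNUP210 libraries and 0.57 between the shCon libraries. Among the 23 at 2 to 5 TPM these were 0.41, beside 0.70 and 0.50. For the 18 at 5 to 20 TPM they were 0.39, beside 0.39 and 0.31. Among the 18 at 20 TPM and over they were 0.37, beside 0.35 and 0.29, and 11 of those 18 did not overlap between the groups, a share like that of all genes at this level (3140 of 5142, 61.1%). One fragment on a 1 kb transcript was worth about 0.625 and 0.675 TPM in shNUP210, against 0.525 TPM in each shCon library, so between 42 and 45 of 86 RNAs had under 10 fragments in a library. TPM keeps no depth, and this worth is approximate.

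**Figure D3:**
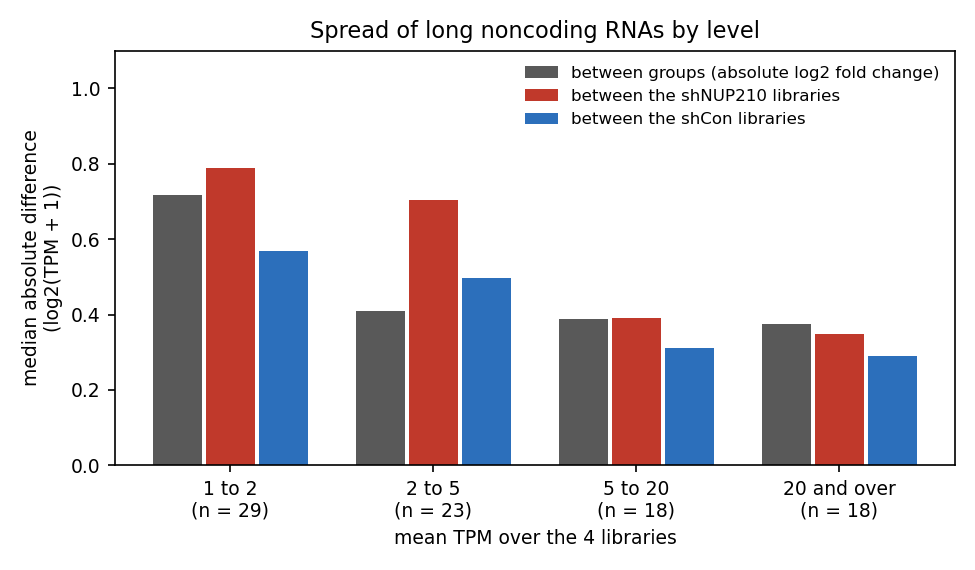
Median absolute difference on log2(TPM + 1) for the 88 long noncoding RNAs by mean level, between the groups (grey), between the shNUP210 libraries (red) and between the shCon libraries (blue). Below 2 TPM the red bar (0.79) is taller than the grey one (0.72), and at 20 TPM and over the 3 bars are close (0.37, 0.35 and 0.29).

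**Figure D4:**
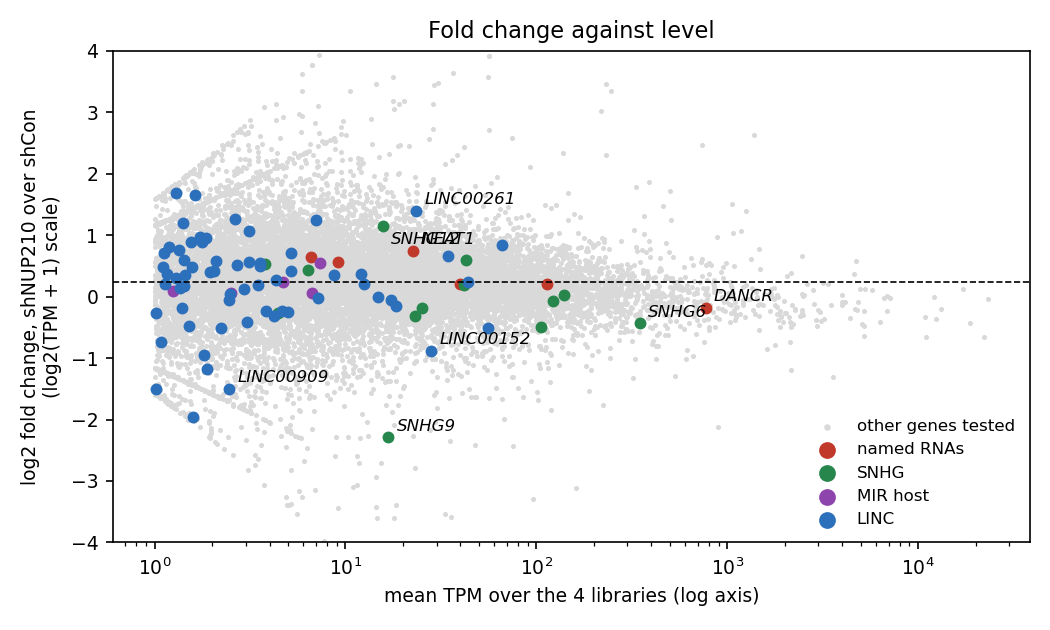
Log2 fold change (shNUP210 over shCon, log2(TPM + 1)) against mean TPM over the 4 libraries (log axis) for the 88 long noncoding RNAs by class, over all genes tested in grey, with their median as a dashed line. The axis ends at -4 and 4, which leaves out 10 genes, and LINC00261 stands highest among the long noncoding RNAs above 5 TPM.

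The fold changes of the nearest listed protein-coding genes bore little relation to those of the RNAs. A neighbour (the nearest listed protein-coding gene with a mean of 1 TPM or more) was found for the 85 RNAs with coordinates in GENCODE release 29. Distances between the starts ranged up to 3679587 bases, and some neighbours recur. In 51 of the 85 pairs both genes lay on the same side of the median of all genes, with Pearson's r of -0.01 between their log2 fold changes across the pairs, which share the 4 libraries. For the 13 RNAs that start within 1 kb of the neighbour's start the counts were 7 of 13 and r was 0.11. None of the neighbours was called by limma, where 0.334% of all genes tested were called higher and 0.321% lower. Exons of 25 of the 88 RNAs overlap another listed gene by 100 bases or more, and of the 86 with transcript sequences 20 share 20% or more of their 50-base stretches with another gene and 6 share 50% or more. The counting could have split their reads, which was not tested. LINC00261, LINC00152, LINC00969, LINC00304, SNHG7, MIR497HG and MIRLET7DHG are among those 20. The gene that shares most with LINC00261 is not listed in the deposited tables, and the one that shares most with MIRLET7DHG had a mean of 0.1 TPM.

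Genes that work with these RNAs were read from 5 lists, and 0 members of any list passed at an adjusted p under 0.05. Paraspeckle protein genes had 8 of 13 members higher and 0 lower at an unadjusted p under 0.05 (14.4% and 4.76% among all genes), with a median log2 fold change of 0.47, or 0.23 above that of all genes. HNRNPK, an RNA-binding protein that shapes NEAT1 processing, was at 362 and 356 TPM in shNUP210, against 279.8 and 235 TPM in shCon (log2 fold change 0.48, SE 0.12, limma adjusted p = 0.137). NONO, a core paraspeckle protein, was at 285 and 329.6 TPM in shNUP210, against 202 and 237 TPM in shCon (0.49, SE 0.13, adjusted p = 0.16). Both had higher values in both shNUP210 libraries, as did NEAT1 and 38.8% of all genes tested. Under the other scalings the log2 fold change was 0.28 to 0.42 for HNRNPK and 0.28 to 0.40 for NONO. The list members have means of 38.9 to 307.9 TPM, against a median of 10.35 TPM over all genes, and were not matched for level.

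Nuclear speckle genes had 6 of 9 higher and 0 lower at an unadjusted p under 0.05, against 14.4% and 4.76% among all genes. Their median was 0.46, or 0.22 above all genes. They have means of 36.25 to 293.1 TPM, and neither they nor the lists that follow were matched for level. SRSF2, a splicing factor, was at 322 and 339.7 TPM in shNUP210, against 244 and 267 TPM in shCon (0.37, SE 0.10, limma adjusted p = 0.158), and RNPS1, a splicing activator, at 279 and 248 TPM in shNUP210, against 241 and 195 TPM in shCon (0.28, SE 0.14, adjusted p = 0.349). Genes of nonsense-mediated decay, which removes many spliced host transcripts, had 5 of 14 higher and 0 lower, with a median of 0.40, or 0.16 above all genes. EIF4A3, a core of the exon junction complex, was at 396 and 367 TPM in shNUP210, against 350.5 and 339 TPM in shCon (0.15, SE 0.09, adjusted p = 0.437). SMG5, which recruits decay enzymes, was at 79.6 and 90.2 TPM in shNUP210, against 84.9 and 82.9 TPM in shCon. SMG5 overlapped between the groups and EIF4A3 did not.

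Genes of the snoRNP core and its assembly had 2 of 16 higher and 1 lower at an unadjusted p under 0.05. Among all genes these shares were 14.4% and 4.76%. The list had a median of 0.13, or 0.11 below all genes. NHP2, of the H/ACA snoRNPs, was at 572 and 524 TPM in shNUP210, against 451 and 437 TPM in shCon (0.30, SE 0.09, limma adjusted p = 0.174). FBL, the methyltransferase of C/D snoRNPs, was at 298 and 373 TPM in shNUP210, against 457 and 489 TPM in shCon (-0.50, SE 0.13, adjusted p = 0.155). The 2 most abundant members thus lay on opposite sides, neither past the threshold. MicroRNA processing genes had 1 of 9 higher and 0 lower, with a median of 0.27, or 0.02 above all genes. TARBP2, a partner of Dicer, was at 88.4 and 93.8 TPM in shNUP210 and at 100.7 and 78.1 TPM in shCon, and XPO5, which exports precursor microRNAs, at 34.2 and 28.8 TPM in shNUP210 and at 24.8 and 48.3 TPM in shCon, and both overlapped.

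**Figure D5:**
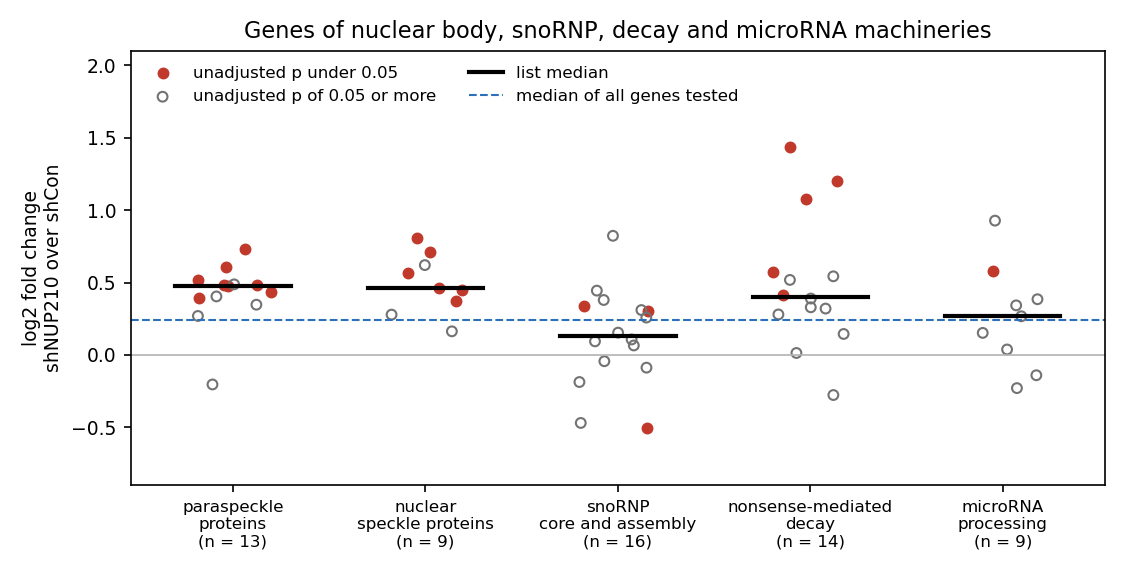
Log2 fold change (shNUP210 over shCon, log2(TPM + 1)) of the members of 5 lists of genes that work with long noncoding RNAs or their small RNA products, with list medians as black bars and the median of all genes tested as a dashed line. Filled points have an unadjusted limma p under 0.05: 8 of 13, 6 of 9, 3 of 16, 5 of 14 and 1 of 9 from left to right, and 0 passed after adjustment.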

How the data were processed

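Per the labels' protocols, RNA of Huh7 cells was taken up in Trizol and 4 libraries, 2 shNUP210 and 2 shCon, were built from it with a TruSeq RNA kit. The authors deposited 1 table per library with gene values in TPM, normalised by transcript length and library total. Trimmomatic, STAR, RSEM, DESeq and hg38 are named in the submitters' processing notes, and their versions, roles, the annotation release and the strand setting are not given in the sources used here. Totals lie between 999993 and 999998 TPM.

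Genes with a mean of 1 TPM or more over all 4 libraries, a filter blind to the groups, were tested with limma 3.58.1 (R 4.3.3) on log2(TPM + 1), a scale that understates folds of low genes, with a mean-variance trend in eBayes. P-values are two-sided, with Benjamini-Hochberg adjustment over 14663 genes, and genes at an adjusted p under 0.05 count as called. With 2 libraries per group a permutation test cannot give a p below 0.33. The fit was tested on simulated data. Classes and lists are described by counts and medians, with no test. Positions and exon overlaps are from GENCODE release 29 (GRCh38), snoRNA positions and sequences from RefSeq (GRCh38.p14). Of the 88 RNAs, 65 had a RefSeq start window. A stretch is a 50-base word of a gene's transcripts found in another gene's.

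The RNAs named are the 6 individually named, the 5 of highest mean TPM per class, any called, and the 2 of highest mean TPM per list. Also named are the highest and lowest log2 folds, up to 8 each. These are taken among those without overlap and with 5 TPM or more in the higher group. The RNAs and lists were chosen with earlier results of these data known. Alternatives were other filters, pseudocounts, scalings, limma settings, a replicate block and leaving out each library. Same-numbered libraries shared no deviation from their group means (correlation 0.01), so no pairing was used. The tables of a group held equal values for 0.08% of the values over 1 TPM, so none was counted as a duplicate.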

Additional observations from a re-analysis of the deposited data

How the results depend on the processing

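Depth limits these results: TPM keeps no counts, and about 42 to 45 of 86 RNAs had under 10 fragments per library. The count of genes called moved with the settings, from 96 to 320 (1 TPM in all 4 libraries), 290 (5 TPM in 2 libraries), 14 (no filter), 48 (replicate block), 0 without the mean-variance trend (2474 genes at an unadjusted p under 0.05) and 0 in each fit on 3 libraries (1870 to 2065 genes at an unadjusted p under 0.05). Libraries with the same number share a number only (correlation of their deviations 0.01), and the replicate block called 0 of the 88 RNAs. Among the fits on all 4 libraries, the count of the 88 called was 0 except for 1 under each of the first 2 filters, both times LINC00261. The count of RNAs at least 2-fold apart without overlap moved from 10 to 5 (both groups at 1 TPM), to 3 (mean of 5 TPM) and to 16 to 21 with 1 library left out, where a group of 1 library overlaps less easily. Relative to all genes, the median log2 fold change of the individually named RNAs was 0.31 among those without an exon overlap (0.14 for all 6). With 1 library left out it was 0.066 to 0.23, that of LINC genes -0.15 to 0.22, that of MIR host genes -0.18 to 0.035 and that of SNHG genes -0.48 to -0.15.

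Sign changes fell on small log2 fold changes, and their cause was not tested. With median-ratio, quantile and trimmed-mean scaling, in this order, MIR22HG was at -0.12, -0.26 and -0.12, MIR600HG at -0.079, -0.23 and -0.081, SMG5 at -0.18, -0.15 and -0.19, SNHG5 at -0.17, -0.076 and -0.18 and TARBP2 at -0.16, -0.12 and -0.16. EIF4A3 was at -0.055 with median-ratio and at -0.058 with trimmed-mean scaling. With quantile normalization HULC was at -0.019, MIR210HG at -0.26 and MIR497HG at -0.092. With 1 library left out the ranges were -0.12 to 0.23 for MIR22HG, -0.15 to 0.28 for MIR600HG, -0.075 to 0.10 for SMG5, -0.21 to 0.26 for SNHG5, -0.14 to 0.22 for TARBP2, -0.59 to 0.79 for MIR210HG, -0.057 to 0.53 for MIR497HG, -0.21 to 0.073 for SNHG7 and -0.61 to 0.33 for XPO5. In the settings listed here and in processing, 478 of the other values for single genes kept their sign and their side of the threshold, and the remaining 2 are the calls of LINC00261. Sizes moved more often than signs. Of the 37 named genes, 15 moved by over 1.5 times with 1 library left out and 19 under another scaling without a change of sign. With 1 library left out, SNHG6 ranged from -0.78 to -0.087, SNHG9 from -4.55 to -0.019, TUG1 from 0.26 to 1.03, MIRLET7DHG from 0.080 to 1.01, LINC01003 from -0.41 to -0.11, HULC from 0.027 to 0.38, SNHG3 from 0.27 to 0.59, EIF4A3 from 0.090 to 0.20 and RNPS1 from 0.13 to 0.43. Over the other scalings, NEAT1 ranged from 0.47 to 0.56, MALAT1 from 0.26 to 0.38, LINC00969 from 0.44 to 0.47, SNHG17 from 0.39 to 0.40, LINC00094 from 0.018 to 0.037 and LINC00657 from -0.34 to -0.24. Filters and limma settings do not alter a fold, so there the sign was fixed.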
